A study of Mus musculus with 2 samples.

Results

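Transcripts of 9 genes of ADP-ribosylation were followed in CT26 cells, a mouse colon carcinoma line. They are Parp1, Parp2, Parp9, Parp10, Parp12, Parp14, Zc3hav1 and Tiparp, which are PARP family genes, and Dtx3l, which encodes the ubiquitin ligase partner of PARP9. The genes were chosen by symbol, and each matched exactly 1 of the 54532 rows of the deposited table. In the tested culture lentivirus drove mouse Oct4 together with human SOX2. Its control culture carried lentivirus with an empty vector and is labelled wild type in genotype. Both were cultures of the same line, grown in RPMI medium with serum for 4 days before total RNA was taken. The labels do not say which share of cells took up the vectors or whether clones were picked. Each group held 1 library, so every difference below compares 1 culture with 1 culture, without a replicate check or a p-value.

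PARP proteins use NAD to attach ADP-ribose to proteins and nucleic acids. PARP1 and PARP2 build long chains at DNA breaks, where the chains recruit repair factors. Most other members attach single units, and several of them are induced by interferon and act on viral RNA, viral proteins or immune signalling. Zc3hav1 encodes ZAP, which has no such catalytic activity and binds viral RNA rich in CpG. Tiparp, also called Parp7, is a known target of the aryl hydrocarbon receptor (AHR).

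The library totals were 31521115 gene-assigned reads with Oct4 and SOX2 and 32262408 in the control. Pou5f1, the mouse gene for Oct4, was at 173 FPKM with Oct4 and SOX2 and had 0 reads in the control, at least 4143-fold higher when the control is set at 3 reads. Mouse Sox2 was at 23.3 FPKM with Oct4 and SOX2 and 14.1 FPKM in the control, and whether reads of the human transgene were counted there was not tested. FPKM counts sequenced fragments relative to the length of the gene and the depth of the library. Reads on the mitochondrial genome made up 1.47% and 1.49% of all reads in the Oct4 and SOX2 library and the control library. Within that total the mitochondrial ribosomal RNA genes differed. With Oct4 and SOX2 mt-Rnr1 had 722 reads and mt-Rnr2 3675, against 3277 and 16611 in the control, 4.53-fold and 4.51-fold lower. Reads on ribosomal RNA genes made up 0.0406% with Oct4 and SOX2 and 0.122% in the control, and the part of these ribosomal RNA differences in the results below was not tested. Of 8 colon epithelium markers, Krt18 and Krt20 reached 1 FPKM, while Cdh1 and Cdx1 had 0 reads in both libraries and Epcam had 2 reads with Oct4 and SOX2 and 1 in the control. None of 10 leukocyte markers reached 1 FPKM, and their summed level was 0.976 FPKM with Oct4 and SOX2 and 1.03 FPKM in the control. Cd3e and Cd8a of T cells, Ncr1 of natural killer cells and Adgre1 of macrophages had 0 reads in both, and Ptprc, the pan-leukocyte marker, had 2 reads in each. Of 4 endothelial and fibroblast markers 1 reached 1 FPKM, with a summed level of 1.84 FPKM with Oct4 and SOX2 and 2.08 FPKM in the control.

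The 9 genes are described by the class assigned to them, and they were chosen with earlier results of these data known. The split by class is therefore a description and not a test. Each of the 6 interferon-induced genes, Parp9, Dtx3l, Parp14, Parp10, Parp12 and Zc3hav1, was lower with Oct4 and SOX2, by 1.74-fold to 2.53-fold in FPKM. Parp1, Parp2 and Tiparp were each higher, by 1.23-fold to 1.42-fold. All 9 passed the filter of 1 FPKM in at least 1 library, with 1092 to 7572 reads per gene in the Oct4 and SOX2 library and 886 to 13181 in the control. For each of the 9, the 95% counting interval of the fold lay on 1 side of 1. The share of all measured genes with such an interval was not counted. At such read numbers small differences also pass, as for Jak1 with a ratio of 1.05 (1.003 to 1.09). The count therefore does not set the 9 apart from other genes. These intervals come from the read numbers alone and do not cover variation between cultures.

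On the log2 scale of FPKM + 1, the median difference was -0.78 over the 9 genes and -0.82 over the 6 interferon-induced ones, while over all 12401 measured genes it was -0.01 with an SD of 0.47. At least 1.5-fold lower on that scale were 6 of the 9, against 6.34% of measured genes. At least 2-fold lower were 2 of the 9, Parp14 and Dtx3l, against 1.85% of measured genes. At least 1.5-fold higher were 0 of the 9, against 6.58%, and 2-fold higher 0, against 2.42%. A log2 ratio below 0 was found for 6 of the 9, against 51.7% of measured genes. Among 10276 protein-coding genes alone, 4.48% were at least 1.5-fold lower and 1.07% at least 2-fold lower, 4.71% and 1.39% were higher by the same factors, and 51.6% had a ratio below 0. With a pseudocount of 5 FPKM in place of 1, none of the 9 was 2-fold lower, against 0.452% of measured genes, and 6 were 1.5-fold lower, against 2.27%.

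**Figure D1:**
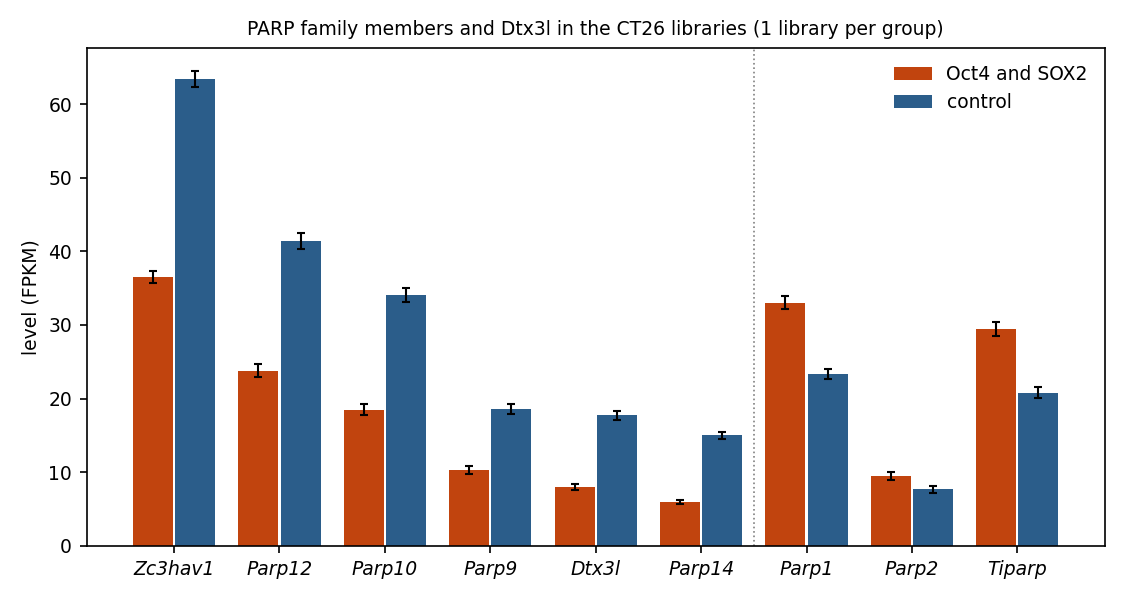
Levels of the 9 genes in FPKM in the Oct4 and SOX2 library (orange) and the control library (blue), 1 library each; error bars are exact 95% Poisson counting intervals. The 6 genes left of the dotted line are the interferon-induced ones and are lower in the Oct4 and SOX2 library, and the 3 genes on its right are higher there.

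Zc3hav1 was the highest of the 9 in both libraries. It stood at 36.5 FPKM with Oct4 and SOX2, against 63.4 FPKM in the control, from 7572 and 13181 reads, which is 1.74-fold lower (95% counting interval 1.69 to 1.79). Zc3hav1 lies on chromosome 6 from 38305286 to 38354603, and its principal transcript has 13 exons with 2988 coding bases. The gene makes longer and shorter forms of ZAP, of which the long form keeps the PARP domain, and a gene-level value cannot separate them. Parp12, a CCCH zinc finger PARP gene on the same chromosome, was at 23.8 FPKM with Oct4 and SOX2, against 41.4 FPKM in the control, 1.74-fold lower (1.66 to 1.82). Parp12 spans 39086410 to 39118349, with 12 exons. Zc3hav1 and Parp12 kept a like proportion, with 1.53 times more FPKM of Zc3hav1 than of Parp12 in each library. The ratio of their folds was 1.0, with a counting interval of 0.949 to 1.06. In all, 8 pairs of members were compared in this way, each without a p-value.

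Parp10 encodes a mono-ADP-ribosyltransferase known as a partner of the Myc protein. It was at 18.5 FPKM with Oct4 and SOX2 from 2519 reads, against 34.0 FPKM in the control from 4644 reads, 1.84-fold lower (1.753 to 1.933). Relative to Parp12 it was 0.777 with Oct4 and SOX2 and 0.822 in the control, and the ratio of the folds, 0.945 (0.884 to 1.01), included 1. Parp10 spans 76231174 to 76243441 on chromosome 15, with 10 exons. It overlaps Plec on the same strand by 205 exon bases, 4.80% of its own exon bases. Plec, for the cytoskeletal linker plectin, went the other way, with 77496 reads with Oct4 and SOX2 and 46523 in the control. How reads in shared bases were counted is not given in the sources used here.

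Parp9, Dtx3l and Parp14 lie within 139.7 kb on chromosome 16 in build GRCm38, from 35832874 to 35972605. Parp9 and Dtx3l point away from each other and overlap at their starts. PARP9 and DTX3L proteins form a complex that, in human cells, attaches ubiquitin to histones and supports antiviral transcription and DNA repair. PARP14 is known in mouse B cells as a cofactor of STAT6, the transcription factor of interleukin-4 signalling.

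Parp14 was the lowest relative to its control, at 5.92 FPKM with Oct4 and SOX2 from 1756 reads, against 14.98 FPKM in the control from 4448 reads. That is 2.53-fold lower (2.39 to 2.67), and 0.984% of measured genes had a lower log2 ratio. Parp14 has the longest coding region of the 9, with 5451 coding bases in 17 exons. Dtx3l was at 8.03 FPKM with Oct4 and SOX2 from 1464 reads, against 17.7 FPKM in the control from 3241 reads, 2.21-fold lower (2.08 to 2.35). Parp9 was at 10.3 FPKM with Oct4 and SOX2 from 1598 reads, against 18.6 FPKM in the control from 2890 reads, 1.81-fold lower (1.70 to 1.92). Thus the 3 neighbours were all lower but not by the same factor.

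Relative to Dtx3l, Parp9 stood at 1.28 with Oct4 and SOX2 and at 1.05 in the control, in FPKM over FPKM. The ratio of the folds was 1.22 (counting interval 1.12 to 1.34). Parp14 relative to Dtx3l was 0.738 with Oct4 and SOX2 and 0.844 in the control, with a ratio of 0.874 (0.8038 to 0.9503). Relative to Parp9, Parp14 was 0.575 with Oct4 and SOX2 and 0.806 in the control, with a ratio of 0.714 (0.657 to 0.776). Against Zc3hav1, outside the cluster, Parp14 was 0.162 with Oct4 and SOX2 and 0.236 in the control, with a ratio of 0.687 (0.645 to 0.731). Parp9 and Dtx3l share 458 exon bases on opposite strands, 9.40% of the exon bases of Parp9 and 8% of those of Dtx3l. Whether reads kept their strand is not given, so reads in that stretch cannot be assigned with certainty. An antisense gene over the end of Parp9, Gm15564, had 18 reads with Oct4 and SOX2 and 39 in the control.

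The protein-coding genes flanking the cluster were nearer to the control. Kpna1, an importin alpha gene beyond Parp9, was at 8.61 FPKM with Oct4 and SOX2 and 8.87 FPKM in the control, a ratio of 0.971 (0.917 to 1.03). Wdr5b, the next gene, had a ratio of 1.02 (0.776 to 1.34). On the other side, Hspbap1 had a ratio of 0.775 (0.676 to 0.888) and Dirc2 of 0.793 (0.704 to 0.892), both at less than 4 FPKM. None of these 4 was as low as the 0.395 to 0.554 of the cluster's genes.

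**Figure D2:**
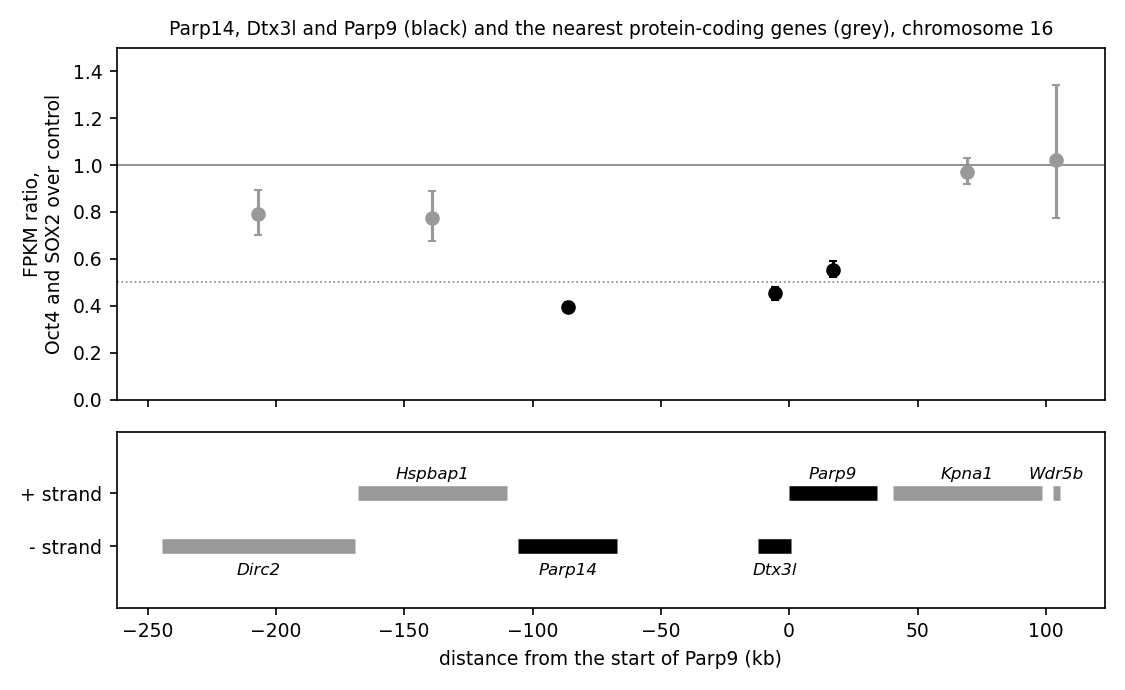
Upper panel, FPKM ratio of the Oct4 and SOX2 library over the control (linear axis, exact 95% counting intervals) for Parp14, Dtx3l and Parp9 in black and the nearest 2 protein-coding genes on each side in grey; lower panel, the span of each gene by strand as distance from the start of Parp9 in kb. The black points lie between 0.395 and 0.554 and the grey ones between 0.775 and 1.02.

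The start regions of these genes are shown because Dtx3l and Parp9 share theirs and because interferon and AHR act through known DNA motifs. RefSeq promoter windows on GRCm38.p6, of 250 bases before to 50 bases after each start, matched 6 of the 9 genes, all but Parp9, Parp14 and Parp10. The window of Dtx3l, chr16:35938978-35939277 on the minus strand, also lies within the span of Parp9. Windows are written 5′ to 3′ on the gene's strand, with Parp11, another PARP gene described below, for comparison. Where a gene had several windows, the window with the most matches is shown. Capitals mark matches on either strand to GCGTG, the core of the AHR response element, in Dtx3l, Parp1 and Tiparp. In Parp11 they mark matches to GAAA followed after 2 bases by GAAA, the core of the interferon-stimulated response element, and TTCNNNGAA, the core of the gamma-activated site, which overlap there. Parp11 is at chr6:127446590-127446889 (plus strand), Parp1 at chr1:180568641-180568940 (plus strand) and Tiparp at chr3:65528197-65528496 (plus strand).
Dtx3l: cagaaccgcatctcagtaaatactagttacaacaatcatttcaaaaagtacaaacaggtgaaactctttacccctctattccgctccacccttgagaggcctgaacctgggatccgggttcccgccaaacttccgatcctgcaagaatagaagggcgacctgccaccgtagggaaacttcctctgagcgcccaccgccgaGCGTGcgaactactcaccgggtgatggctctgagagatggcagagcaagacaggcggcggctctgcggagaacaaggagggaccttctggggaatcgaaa
Parp11: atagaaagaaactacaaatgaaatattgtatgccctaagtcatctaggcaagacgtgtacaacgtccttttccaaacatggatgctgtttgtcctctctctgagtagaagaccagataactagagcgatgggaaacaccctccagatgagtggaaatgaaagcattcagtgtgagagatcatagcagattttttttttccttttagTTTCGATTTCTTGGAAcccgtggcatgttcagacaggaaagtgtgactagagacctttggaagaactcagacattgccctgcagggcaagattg
Parp1: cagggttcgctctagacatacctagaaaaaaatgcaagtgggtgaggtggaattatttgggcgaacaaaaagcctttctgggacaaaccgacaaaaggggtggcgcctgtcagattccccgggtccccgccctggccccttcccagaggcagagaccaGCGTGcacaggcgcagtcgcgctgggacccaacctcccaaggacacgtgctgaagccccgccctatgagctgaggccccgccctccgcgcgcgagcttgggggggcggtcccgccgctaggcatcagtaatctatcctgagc
Tiparp: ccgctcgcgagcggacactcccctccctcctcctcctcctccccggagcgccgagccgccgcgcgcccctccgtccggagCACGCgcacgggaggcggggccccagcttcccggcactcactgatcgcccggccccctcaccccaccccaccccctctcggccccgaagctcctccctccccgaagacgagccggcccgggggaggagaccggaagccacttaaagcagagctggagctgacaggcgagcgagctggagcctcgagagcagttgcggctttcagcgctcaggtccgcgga

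None of the 6 members' windows held the interferon-stimulated response element core or TTCNNNGAA. Of these 6 members, Dtx3l, Parp12 and Zc3hav1 were lower. The response element core was found in 3.44% and TTCNNNGAA in 8.30% of all 32851 windows. These shares are per window, while a gene is counted below if any of its windows matched. Some genes have several windows, so the counts of genes and these shares are not on the same basis. Of 27 other interferon-stimulated genes with a window, 14 held the response element core. Of 7 other PARP genes with a window, 2 held the response element core, Parp11 and Parp4. In Parp11, which was lower, the match begins 44 bases before the start used for the window shown. Another window of Parp11, with GCGTG matches at 127453462 and 127453541, held no response element core. In Parp4, with an FPKM ratio of 0.906 (0.854 to 0.961), there are overlapping matches that begin 150 and 144 bases before it. TTCNNNGAA was also in 2 of the 7, Parp11 and Parp16, which was higher. GCGTG, found in 32.4% of all windows, was in a window of 5 of the 6 members, the exception being Zc3hav1. Counted by gene in the same way, it was in 6 of the 7 other PARP genes and in 12 of the 27 interferon-stimulated genes. The members thus did not stand out from the other PARP genes in this motif. In the windows shown, GCGTG begins 50 bases before the start used for the window of Dtx3l, 92 before that of Parp1 and 170 before that of Tiparp. The match of Dtx3l, at 35939073 to 35939077, lies within the deposited span of that gene, 35926511 to 35939151. The part of these motifs in the differences was not tested. A match is a string of letters and not a measured binding site, and a window without one says nothing of sites elsewhere.

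Parp1, the main sensor of DNA breaks, was at 33.0 FPKM with Oct4 and SOX2 from 5566 reads, against 23.3 FPKM in the control from 3940 reads. It was 1.42-fold higher (1.36 to 1.47). Parp2, its closest relative in function, was at 9.45 FPKM with Oct4 and SOX2 from 1092 reads, against 7.65 FPKM in the control from 886 reads, 1.23-fold higher (1.13 to 1.35). Parp1 lies on chromosome 1 from 180568924 to 180601254 and has 23 exons, and Parp2 lies on chromosome 14 from 50807841 to 50821301 and has 16. Both lay below 1.5-fold, where 91.1% and 80.6% of measured genes had a lower log2 ratio than Parp1 and Parp2. Parp1 exceeded Parp2 by 3.49 times in FPKM with Oct4 and SOX2 and by 3.05 times in the control, and the ratio of their folds was 1.15 (1.04 to 1.27). The proliferation gene Mki67 moved with them, at 55.0 FPKM with Oct4 and SOX2 and 33.8 FPKM in the control, and the part of cell cycling in the Parp1 and Parp2 values was not tested.

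Tiparp was at 29.5 FPKM with Oct4 and SOX2 from 4090 reads, against 20.8 FPKM in the control from 2894 reads, 1.42-fold higher (1.35 to 1.49). TIPARP modifies the AHR itself and, in mouse cells, the kinase TBK1 of the interferon pathway. Its fold matched that of Parp1 within counting error, with a ratio of 1.0 (0.939 to 1.07). Tiparp lies on chromosome 3 from 65528410 to 65555518, with 6 exons. On the opposite strand, the pseudogene 4931440P22Rik overlaps 223 of its exon bases and had 142 reads with Oct4 and SOX2 and 77 in the control. Ahr, the receptor gene, was at 16.8 FPKM with Oct4 and SOX2 and 12.8 FPKM in the control, 1.32-fold higher (1.25 to 1.39). In the AHR pathway list 3 of 8 genes were measured and none differed by 1.5-fold. Arnt, the gene of the receptor's partner, was at 14.7 FPKM with Oct4 and SOX2 and 15.3 FPKM in the control. The classical AHR targets gave few reads: Cyp1a1 had 2 with Oct4 and SOX2 and 11 in the control, and Cyp1b1 had 0 in both.

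The order of levels differed between the libraries. With Oct4 and SOX2 it was Zc3hav1, Parp1, Tiparp, Parp12, Parp10, Parp9, Parp2, Dtx3l and Parp14, and only the counting intervals of Parp9 and Parp2 overlapped among neighbours. In the control it was Zc3hav1, Parp12, Parp10, Parp1, Tiparp, Parp9, Dtx3l, Parp14 and Parp2, with overlap only between Parp9 and Dtx3l. Parp1 and Tiparp thus stood above Parp12 and Parp10 with Oct4 and SOX2 and below them in the control. All 16 PARP genes together summed to 235 FPKM with Oct4 and SOX2 and 303 FPKM in the control. Of this sum, Zc3hav1, Parp12, Parp10, Parp9 and Parp14 made up 40.4% with Oct4 and SOX2 and 56.8% in the control, a difference of -16.4 percentage points (counting interval -17.1 to -15.8). Parp1 and Parp2 made up 18.1% with Oct4 and SOX2 and 10.2% in the control, and Tiparp 12.5% and 6.86% in the same libraries.

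The 8 PARP genes outside the 9 were all measured and had a median log2 ratio of -0.11. Of these, 1 was at least 2-fold lower on the log2 scale of FPKM + 1 and none was 2-fold higher, while 1 was 1.5-fold higher. The lower one was Parp11, a mono-ADP-ribosyltransferase gene, at 4.83 FPKM with Oct4 and SOX2 and 11.8 FPKM in the control, 2.45-fold lower (2.28 to 2.63). Parp11 was therefore within the range of the interferon-induced members. Parp16, whose protein sits in the endoplasmic reticulum membrane, was at 3.48 FPKM with Oct4 and SOX2 and 1.67 FPKM in the control, 2.09-fold higher (1.76 to 2.47) in plain FPKM. The tankyrase genes Tnks2 and Tnks, which act at telomeres and in Wnt signalling, had ratios of 0.810 (0.786 to 0.835) and 0.849 (0.817 to 0.882). Parp3, Parp4, Parp6 and Parp8 had ratios between 0.906 and 1.32.

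**Figure D3:**
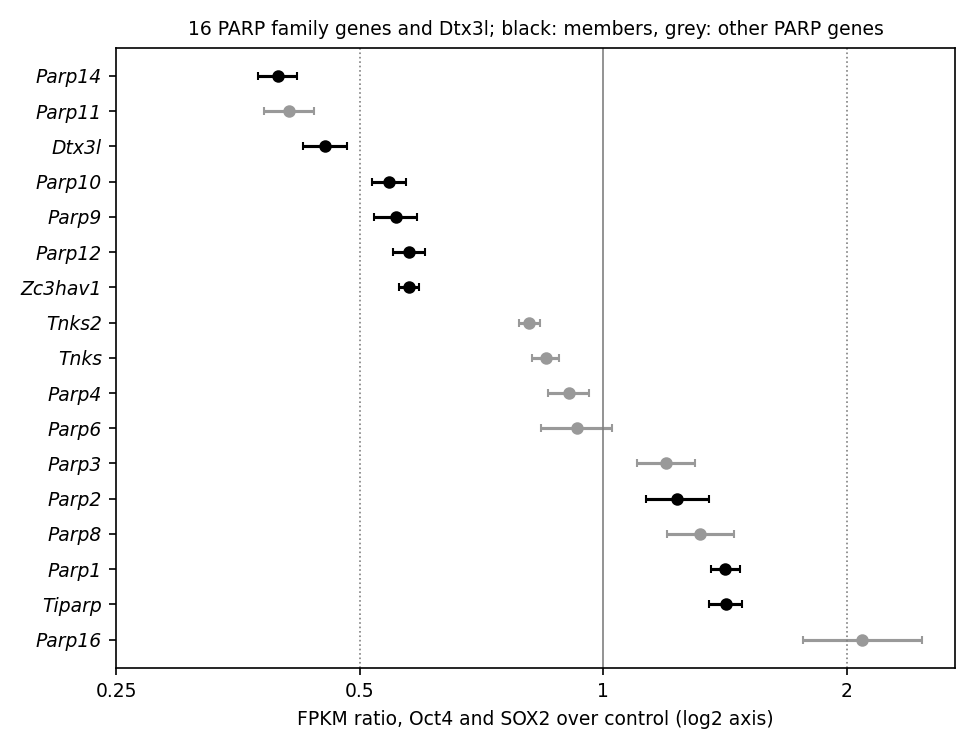
FPKM ratio of the Oct4 and SOX2 library over the control on a log2 axis for the 9 genes described here (black) and the 8 other PARP genes (grey), with exact 95% counting intervals; the dotted lines mark ratios of 0.5 and 2. Parp14 and Dtx3l lie below 0.5 together with Parp11, the other interferon-induced genes lie between 0.543 and 0.575, and Parp1 and Tiparp lie at 1.42.

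The interferon-induced members sat among other genes of that response. Of 32 interferon-stimulated genes outside the 9, all 32 were measured, 32 had a log2 ratio below 0, 25 were at least 1.5-fold lower and 13 at least 2-fold lower, with a median of -0.90. Ifit3 and Ifit1, antiviral effector genes, were 14.4-fold (12.1 to 17.2) and 5.80-fold lower (5.37 to 6.27). The range of the 6 members, -1.21 to -0.77 on the log2 scale of FPKM + 1, was narrower than that of the list, -3.40 to -0.01. Among 14 interferon signalling genes the median was -0.05, with 4 at least 1.5-fold lower, 1 of them 2-fold lower and none 1.5-fold higher. The lowest was Usp18, an inhibitor of the type I receptor that removes ISG15, at 24.2 FPKM with Oct4 and SOX2 and 79.3 FPKM in the control, 3.28-fold lower (3.12 to 3.44). Irf7 and Stat2, which carry the interferon signal to genes, had ratios of 0.542 (0.525 to 0.559) and 0.550 (0.530 to 0.571). Ifnar1 and Ifnar2, for the type I receptor, had ratios of 1.09 (1.02 to 1.16) and 0.975 (0.870 to 1.09). In bulk RNA, fewer expressing cells and less RNA per cell cannot be told apart.

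Cofactors of ZAP were mostly nearer to the control than Zc3hav1. Of 11 genes for ZAP cofactors and RNA decay, 1 was at least 1.5-fold lower and none 2-fold lower or 1.5-fold higher, with a median of -0.13. Trim25, a ubiquitin ligase needed for ZAP activity in human cells and itself interferon-induced, was at 33.0 FPKM with Oct4 and SOX2 and 60.2 FPKM in the control, 1.82-fold lower (1.76 to 1.88). Zc3hav1 relative to Trim25 was 1.10 with Oct4 and SOX2 and 1.05 in the control. Ddx17, an RNA helicase gene, had a ratio of 1.12 (1.09 to 1.14). Khnyn, the gene of an endonuclease that works with ZAP in human cells, had a ratio of 0.730 (0.686 to 0.778). Among 4 other Deltex genes 2 were measured, Dtx3 with a ratio of 0.856 (0.807 to 0.908) and Dtx2 with 1.001 (0.919 to 1.09), neither as low as Dtx3l.

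The receptors upstream of STAT6 went the other way from Parp14. Il4ra, the interleukin-4 receptor alpha gene, was at 9.37 FPKM with Oct4 and SOX2 and 2.91 FPKM in the control, 3.22-fold higher (2.93 to 3.55). Il13ra1, which pairs with it, was at 2.93 FPKM with Oct4 and SOX2 and 0.456 FPKM in the control, 6.44-fold higher (4.82 to 8.74) from 347 and 54 reads. Stat6 itself stood at 33.4 FPKM with Oct4 and SOX2 and 36.3 FPKM in the control, a ratio of 0.920 (0.884 to 0.958). Jak3, a kinase of the same pathway, had a ratio of 1.83 (1.72 to 1.94). Thus 2 of these 4 genes were at least 2-fold higher, against 2.42% of measured genes, and none was 1.5-fold lower, against 6.34%. Il13ra1 passed the filter of 1 FPKM only through the library in which it was higher.

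Measured genes that remove, read or support ADP-ribose differed by less than the 6 interferon-induced members, but not all by less than Parp1, Parp2 and Tiparp. Of 13 such genes 10 were measured, none differed by 1.5-fold, and the median was 0.15. The most expressed were H2afy, for the macrodomain histone macroH2A1, with a ratio of 0.890 (0.852 to 0.931), and Adprhl2, for a hydrolase that takes ADP-ribose off serine, with 0.977 (0.896 to 1.07). Parg, which breaks down the chains that PARP1 builds, had a ratio of 0.782 (0.727 to 0.841), and Hpf1, which directs PARP1 to serine, 1.16 (1.08 to 1.24). Of 13 genes of single-strand break and base excision repair 12 were measured. Of these 12, 2 were at least 1.5-fold higher, Lig1 and Ung, none was 1.5-fold lower, and the median was -0.08. Lig1, the replication and repair ligase gene, was at 33.5 FPKM with Oct4 and SOX2 and 20.3 FPKM in the control, 1.65-fold higher (1.57 to 1.73). Xrcc1, the scaffold recruited by ADP-ribose chains, had a ratio of 1.12 (1.05 to 1.19).

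NAD is the substrate of the catalytically active PARP proteins. Genes of NAD supply, counted together with the NAD kinase genes Nadk and Nadk2, had a median of 0.11 over 7 measured of 10. Nmnat2, for a NAD-synthesizing enzyme known from neurons, was the 1 gene past 2-fold, at 4.54 FPKM with Oct4 and SOX2 and 1.72 FPKM in the control, 2.63-fold higher (2.31 to 3.01). Nampt, the rate-limiting enzyme of the salvage pathway, had a ratio of 0.847 (0.810 to 0.885). Of 10 genes of other NAD users and of nicotinamide methylation 8 were measured and none differed by 1.5-fold, with a median of -0.04. Sirt2, a deacetylase gene, had a ratio of 0.972 (0.918 to 1.03), and Nnmt, for nicotinamide methylation, 0.699 (0.637 to 0.766).

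**Figure D4:**
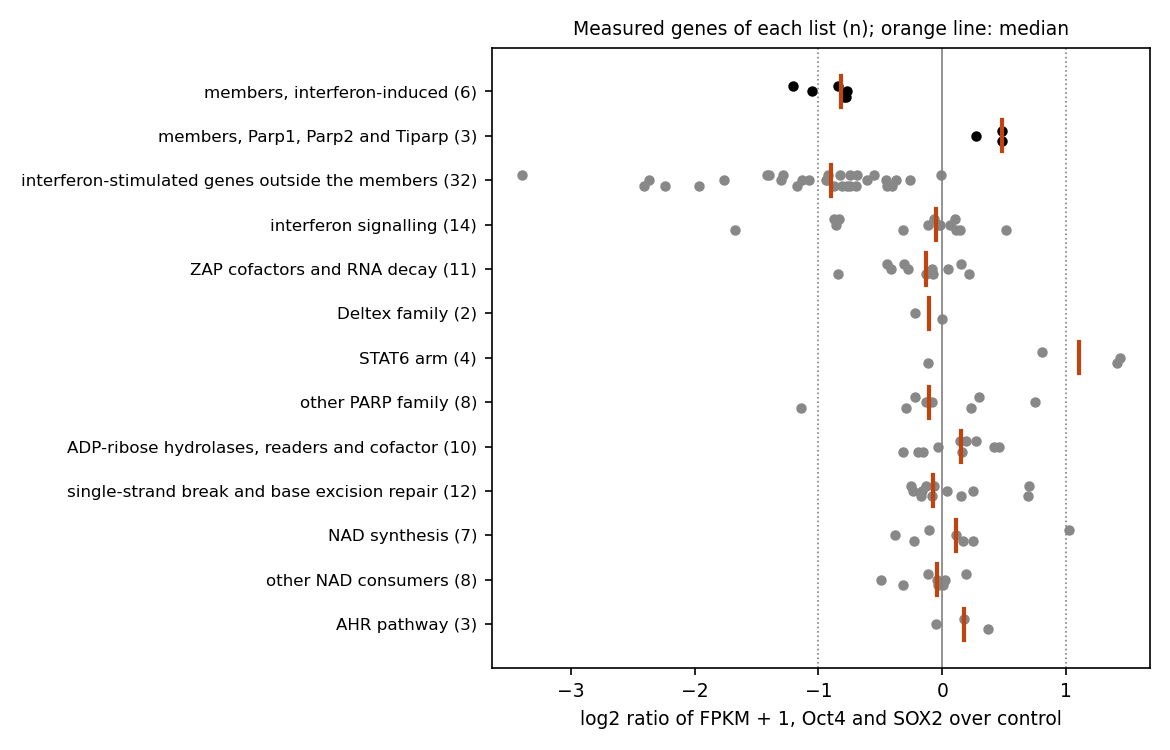
Log2 ratio of FPKM + 1, Oct4 and SOX2 over control, for each measured gene (points) of the lists named on the left, with the number measured in brackets; black points are the 9 genes described here, orange lines are medians and dotted lines mark 2-fold. The 6 interferon-induced members lie between -1.21 and -0.77, and Parp1, Parp2 and Tiparp between 0.27 and 0.48.

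Protein-coding genes with the most similar levels in both libraries were found by distance on log2(FPKM + 1). Over 2 libraries this distance says only that both values are close. Nearest to Parp9 was 4921524J17Rik, at 10.2 FPKM with Oct4 and SOX2 and 18.5 FPKM in the control, a distance of 0.012. Nearest to Zc3hav1 was Ccnd2, at 37.6 and 61.2 FPKM in the same libraries, a distance of 0.065. Nearest to Parp14 was Stbd1, at 5.62 and 17.2 FPKM, with the widest gap of the 9, 0.20.

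**Figure D5:**
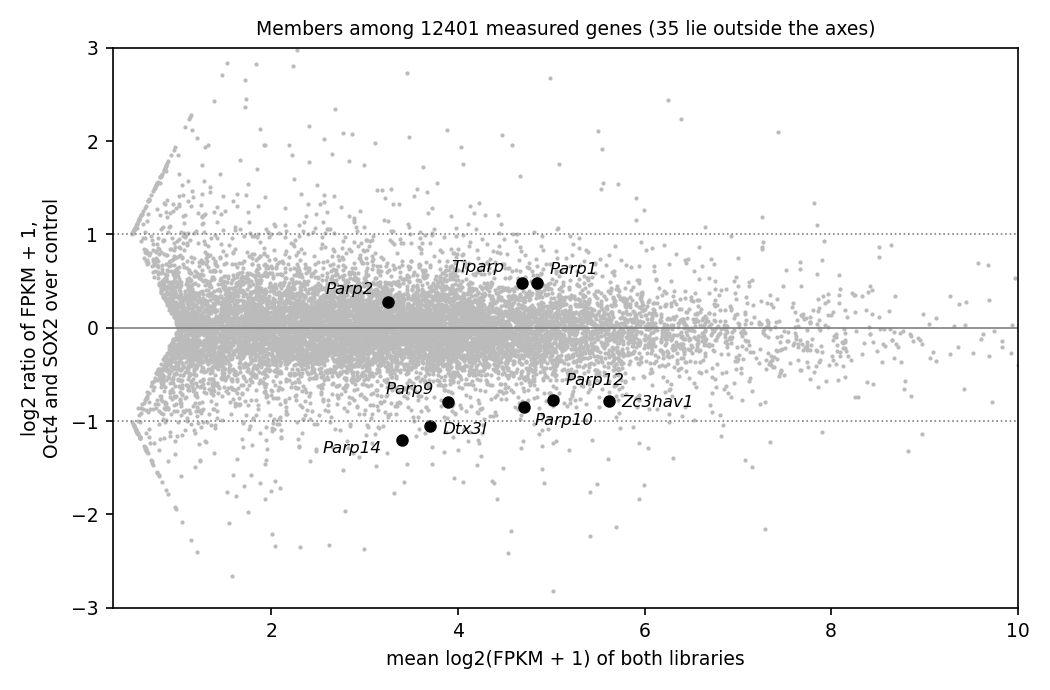
Each grey point is 1 of 12401 measured genes, by its mean log2(FPKM + 1) over both libraries (x) and its log2 ratio of FPKM + 1, Oct4 and SOX2 over control (y); dotted lines mark 2-fold, and 35 genes lie outside the axes. Parp14 and Dtx3l lie below the lower dotted line, the other interferon-induced members just above it, and Parp1, Parp2 and Tiparp between 0.27 and 0.48.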

How the data were processed

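RNA sequencing values of 2 libraries, 1 per group, were used; groups follow the genotype labels. The authors deposited 1 table of FPKM values per gene with gene length. CASAVA, HISAT2 and featureCounts 1.5.0-p3 on GRCm38 are named per the submitters' processing notes, while the FPKM formula, the strand setting and how reads with several matches were treated are not stated. Multiplied by gene length, 100% of the values were whole numbers of reads in units of a library-specific step (tolerance 0.001 reads), and these reads were used for intervals. Genes with at least 1 FPKM in 1 library were measured (12401). Differences are log2 ratios of FPKM + 1, which understate low genes. Folds are plain FPKM ratios with exact 95% conditional binomial (Clopper-Pearson) intervals, levels have exact Poisson intervals, and ratios of 2 folds have the exact conditional interval of the odds ratio; all cover counting error only, and PCR copies are not independent molecules. No test was possible with 1 library per group.

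Members and lists were chosen with earlier results of these data known. Named from each list were up to 2 genes per direction past 2-fold or, with none, the 2 most expressed; some of these are not reported here. Other genes, among them Mki67, Ahr, Plec, Parp16, Parg, Hpf1, Xrcc1, Nampt, Khnyn, Stat2, Irf7, Ifnar1 and Ifnar2, were chosen after their values were seen. So were Jak1, Oard1 and Chd1l. Exon structure came from GENCODE M21, on the same build, where all members had the deposited coordinates. Protein sequences were not used here. The steps were tested on simulated data. Alternatives changed the pseudocount, filter, scaling and gene set. Python 3.11.15, numpy 2.4.6, pandas 2.3.3, scipy 1.17.1 and matplotlib 3.10.9 were used.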

Additional observations from a re-analysis of the deposited data

How the results depend on the processing

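With a pseudocount of 5 FPKM in place of 1, the number of the 9 genes at least 2-fold lower with Oct4 and SOX2 was 0, against 0.452% of measured genes, the median log2 ratio over the 9 was -0.69, and that over the 6 interferon-induced genes was -0.73. A larger pseudocount shrinks every ratio by construction. Under that setting 6 genes were still at least 1.5-fold lower, against 2.27% of measured genes. Of the 8 alternatives, some changed the pseudocount (0.1 and 5 FPKM) or the filter (none and 5 FPKM). The others were plain read totals, centring on the median, scaling without the 50 highest genes and protein-coding genes only. Each of the 9 genes kept the sign of its log2 ratio in all 8. A pseudocount cannot change that sign, and the filters and the gene set left the ratios of the 9 genes as they were. Only the alternatives in scaling and centring could have changed it. Parp14 ranged from -1.32 to -0.87, Dtx3l from -1.13 to -0.80 and Parp1 from 0.42 to 0.52. The share of PARP family FPKM in interferon-induced members, Oct4 and SOX2 minus control, was -16.4 percentage points and -16.1 with the filter of 5 FPKM. No paired analysis was possible because each group held 1 library, and for the same reason no library could be left out. Depth was not the limit for the 9 genes, which had at least 886 reads in each library, but variation between cultures was not measured.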

Other observations

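Parpbp, which encodes a PARP1-binding inhibitor of homologous recombination and was chosen after its value was seen, was at 9.37 FPKM with Oct4 and SOX2 from 1073 reads and at 5.40 FPKM in the control from 620 reads. It was 1.73-fold higher (95% counting interval 1.57 to 1.92), a larger fold than that of Parp1 itself. Also chosen after its value was seen, Zc3hav1l, a relative of Zc3hav1 that lacks most of its domains, was at 3.68 FPKM with Oct4 and SOX2 and 3.02 FPKM in the control, 1.22-fold higher (1.09 to 1.36), in the direction opposite to Zc3hav1. Likewise chosen, Fam162a, a hypoxia-responsive gene that lies next to Wdr5b near the Parp9 cluster, was at 135 FPKM with Oct4 and SOX2 and 83.6 FPKM in the control, 1.62-fold higher (1.53 to 1.70). Within the span of Parp14 on the same strand, the locus AC129574.2 had 0 reads with Oct4 and SOX2, which allows up to 0.0653 FPKM by the exact Poisson interval, and 14 in the control.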
